A study of Rattus norvegicus with 10 samples.

Results

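The chaperonin TRiC, also called CCT, is built from 8 different subunits, and their mRNAs were followed here in rat cerebral cortex. The members were the rows of the deposited gene table whose symbol is Tcp1, Cct2, Cct3, Cct4, Cct5, Cct6a, Cct7 or Cct8, which gave 8 genes of 32623 rows. Each symbol had 1 row, and 8 of 8 were among the 15169 genes that passed the expression filter, an FPKM (fragments mapped to a gene, scaled for transcript length and library depth) of at least 0.5 in at least 5 libraries. The study compared 5 control libraries with 5 EA libraries, where EA is electroacupuncture, electrical current passed through acupuncture needles. All groups were adult male Sprague-Dawley rats that carried no transgene or deletion. EA rats were needled and stimulated at the head points GV20 and GV26, control rats were only bound for the same time, and both were anaesthetised with pentobarbital and perfused with saline before the cortex was taken. The time between the end of stimulation and perfusion and whether each library is a separate rat are not stated in the sources used here.

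TRiC is a barrel of 2 stacked rings, each holding 1 copy of each of the 8 subunits in a fixed order. It encloses newly made proteins and folds them in a cycle driven by ATP, and its obligate clients include actin, tubulin and many WD40 repeat proteins. Prefoldin and the Hsp70 system hand it unfolded chains, and phosducin-like proteins act as its cofactors. In neurons the complex supplies the tubulin and actin of axons and dendrites, and it slows the aggregation of polyglutamine proteins. Because the rings need each subunit in equal number, the questions asked of these mRNAs were whether they differed between EA and control rats and whether they moved together from library to library.

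The 8 genes lie on 7 chromosomes. In Rnor_6.0, the build named in the submitters' processing notes, Tcp1 (the alpha subunit) spans chr1:48025663-48033396, minus strand, and Cct6a (zeta) chr12:30491416-30501860, minus strand. Cct4 (delta) spans chr14:107767392-107780270, plus strand, and Cct8 (theta) chr11:27130172-27141881, minus strand. Cct2 (beta) spans chr7:60109974-60122805, minus strand, and Cct7 (eta) chr4:117235023-117252265, plus strand. Cct3 (gamma) at chr2:187668796-187693610, plus strand, and Cct5 (epsilon) at chr2:84667633-84678790, minus strand, share a chromosome but lie far apart on it. Each is annotated as protein coding, and Tcp1, Cct3 and Cct6a also carry transcripts annotated as retained introns.

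The promoters of 4 subunits are shown, picked by the results for their mRNAs, and a relation of the motifs to those results was not tested. Tcp1 and Cct6a had the lowest p-values between EA and control, Cct4 and Cct6a were the closest pair across libraries, and Cct5 followed the other subunits least. Each sequence runs 5′ to 3′ from 250 bases before to 50 bases after the annotated start of the gene in RefSeq, on build GRCr8, and RefSeq held an entry for 8 of 8 subunits. Capitals mark the motifs searched on both strands. These were paired heat shock units (GAANNTTC or TTCNNGAA), the CCAAT box (CCAAT), the GC box (GGGCGG), an ETS core (CCGGAAG), the cyclic AMP response element (TGACGTCA) and the TATA box (TATAAA).
Tcp1, chr1:50384478-50384777, minus strand: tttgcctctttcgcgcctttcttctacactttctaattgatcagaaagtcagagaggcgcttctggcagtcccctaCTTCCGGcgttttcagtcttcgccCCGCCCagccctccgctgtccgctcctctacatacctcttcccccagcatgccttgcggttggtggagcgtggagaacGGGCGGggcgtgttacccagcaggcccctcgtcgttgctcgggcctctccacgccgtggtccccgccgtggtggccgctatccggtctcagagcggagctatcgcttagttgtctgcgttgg
Cct6a, chr12:32519023-32519322, minus strand: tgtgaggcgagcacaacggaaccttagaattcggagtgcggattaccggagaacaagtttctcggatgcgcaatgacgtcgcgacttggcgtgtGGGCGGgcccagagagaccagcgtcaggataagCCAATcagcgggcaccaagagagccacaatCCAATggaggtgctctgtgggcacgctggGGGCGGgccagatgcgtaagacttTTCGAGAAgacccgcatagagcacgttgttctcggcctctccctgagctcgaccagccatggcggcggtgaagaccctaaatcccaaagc
Cct4, chr14:101192807-101193106, plus strand: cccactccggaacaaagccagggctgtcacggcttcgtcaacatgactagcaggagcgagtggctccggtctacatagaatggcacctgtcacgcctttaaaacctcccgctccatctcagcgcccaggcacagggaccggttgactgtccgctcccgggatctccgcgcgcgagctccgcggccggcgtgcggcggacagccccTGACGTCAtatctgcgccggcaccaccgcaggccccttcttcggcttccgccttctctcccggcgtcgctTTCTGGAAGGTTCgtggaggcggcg
Cct5, chr2:84313724-84314023, minus strand: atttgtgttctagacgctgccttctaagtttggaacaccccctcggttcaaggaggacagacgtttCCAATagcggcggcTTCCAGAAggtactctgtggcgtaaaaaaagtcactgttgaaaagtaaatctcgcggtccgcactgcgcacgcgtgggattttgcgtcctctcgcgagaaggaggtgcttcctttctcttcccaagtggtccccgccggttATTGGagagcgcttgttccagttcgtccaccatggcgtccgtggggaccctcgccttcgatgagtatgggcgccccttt

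The motifs differed among the subunits. The pair TTCNNGAA, a minimal unit of the element that heat shock factors recognise, was present in Cct4, Cct5 and Cct6a (3 of 8), against 8.77% of 33469 rat promoters of the same length. It lay from 25 to 32 bases after the start of Cct4, from 40 to 33 bases before the start of Cct6a, and from 170 to 163 bases before that of Cct5. In Cct4 it overlaps the other pair, GAANNTTC, at 30 to 37 bases after the start, which 1 of 8 subunits and 8.59% of promoters held. The overlap gives Cct4 an element of 3 alternating units, present in 0.798% of promoters. Tcp1 held neither pair. The GC box was found in Tcp1, Cct2, Cct3, Cct6a, Cct7 and Cct8 (6 of 8, against 33.1%) and the CCAAT box in Cct3, Cct5, Cct6a, Cct7 and Cct8 (5 of 8, against 37.5%). The ETS core was in Tcp1 (8.75% of promoters), the cyclic AMP response element in Cct4 (1.83%) and the TATA box in 0 of 8 (14.2%). A match describes the letters of the window and does not show that a factor binds there. The share of G and C in the 8 windows ran from 52.3% in Cct8 to 66.0% in Cct4 and Cct7, with 61.7% in Tcp1, 59.0% in Cct6a and 55.3% in Cct5, against a median of 51.7% over all promoters.

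Library totals of the estimated counts lay between 55223193 and 61707722 in control and between 47843590 and 60941939 in EA, and a subunit had from 3191 to 9300 counts in a library. Each total was larger than the number of valid reads the study gives for that library, so an estimated count is not the same as a sequenced read. Mitochondrial transcripts took 38.2% to 46.7% of the summed FPKM. The libraries EA 2 and EA 5 stood apart by their structural RNAs (small nuclear, small nucleolar, ribosomal and other short RNAs), whose summed FPKM was 1986 and 2442 there. It was 1218, 1277 and 1342 in EA 1, EA 3 and EA 4, and 1075 to 1171 in control. Every EA library thus held more structural RNA than every control library. The cortex label held against 5 markers of excitatory cortical neurons, each of which was expressed in every library, led by the glutamate transporter Slc17a7. At an unadjusted p under 0.05, 0 of 5 excitatory, striatal, astrocyte and microglial markers differed between the groups. At that p 2 of 5 inhibitory neuron markers and 1 of 3 dentate gyrus markers were higher in EA. The inhibitory list was mixed, with 2 of 5 log2 fold changes, EA against control, above 0 and a median of -0.03. Lower in EA at that p were 2 of 5 oligodendrocyte markers (summed FPKM 903 to 1340 in control, 795 to 1040 in EA), 1 of 4 endothelial (52.8 to 67.7, and 49.8 to 53.0), 1 of 5 mural, 1 of 5 thalamic and the 1 blood marker tested (3.36 to 16.4, and 2.22 to 5.88 over the listed blood genes). Of 2 meningeal and choroid plexus markers 0 differed. The thalamic list was mixed as well, with 3 of 5 above 0 and a median log2 fold change of 0.03. Of all genes tested, 13.7% reached an unadjusted p under 0.05 in either direction and 6.59% reached it while higher in EA. Single markers at that p are therefore not read as a shift of a cell type. As whole lists, 0 of 5 oligodendrocyte, 0 of 4 endothelial and 0 of 5 mural markers had a log2 fold change above 0. Their medians were -0.22, -0.14 and -0.10, and 49.5% of all genes were above 0. The other way went 2 of 3 dentate gyrus markers and 2 of 2 meningeal and choroid plexus markers. Whether these lists reflect a shift of cell types was not tested. The part of these cell types in the subunit values was not tested, and in cortex taken whole a change in RNA per cell cannot be told apart from a change in the number of cells of a type.

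The 8 subunit mRNAs were abundant and lay within a narrow range of levels. FPKM is per transcript length, so levels can be compared between genes on that scale. The mean FPKM over the 10 libraries was 62.5 for Cct5, 55.8 for Cct7, 43.1 for Cct4, 37.5 for Cct8, 36.7 for Cct2, 30.4 for Tcp1, 26.4 for Cct3 and 25.3 for Cct6a. Each level was above that of 81.0% to 93.1% of the genes that passed the filter, and the highest mean was 2.47 times the lowest. Within a library the ratio of the highest to the lowest subunit was between 2.20 (EA 2) and 2.82 (control 3).

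**Figure D1:**
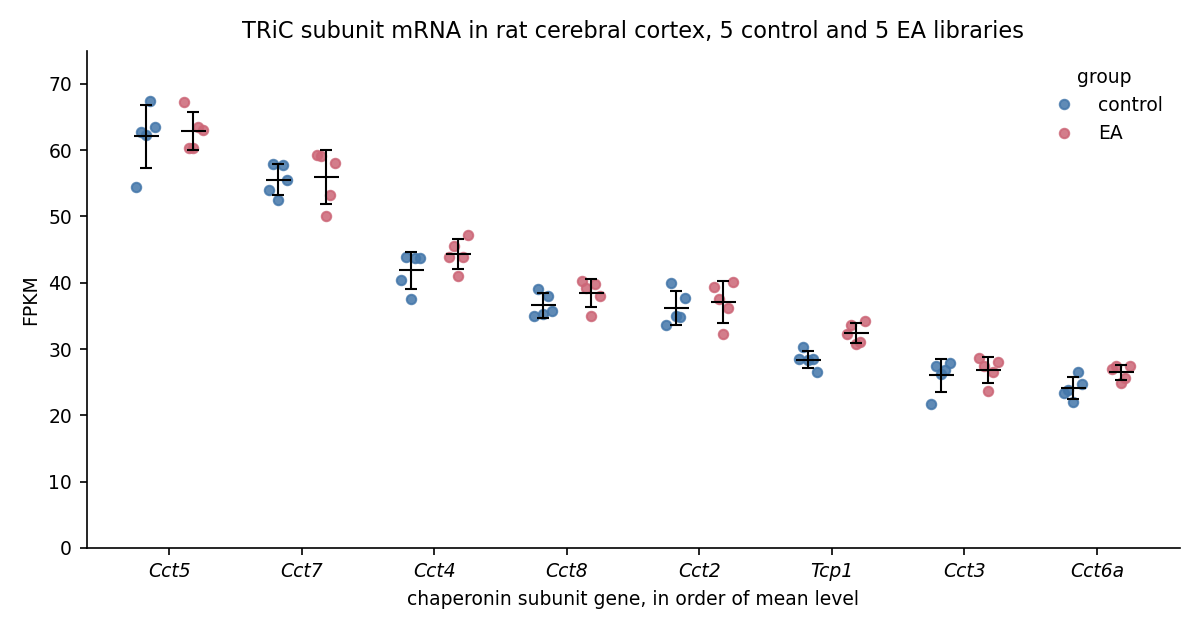
FPKM (vertical axis, linear from 0) of each subunit gene (horizontal axis, in order of mean level) in the 5 control and 5 EA libraries. Each point is a library, the long bar is the group mean and the whiskers are ± 1 SD. The groups are separate for Tcp1, where EA lay between 30.8 and 34.2 and control between 26.5 and 30.2, and they overlap for the other 7.

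The order of levels was almost the same in every library. Cct5 was above Cct7, Cct7 above Cct4, Cct4 above Cct8 and Cct2 above Tcp1 in 10 of 10 libraries, and Tcp1 was above Cct3 in 9 of 10. Cct8 against Cct2 and Cct3 against Cct6a kept their order in 7 of 10 and did not differ beyond their spread. Across libraries Cct7 and Cct4 were the only neighbours in that order whose ranges did not overlap. The subunits varied little between libraries, with a coefficient of variation from 5.65% (Cct7) to 8.23% (Cct3) over the 10.

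Close relatives of these genes were almost silent. Cct6b, the germ cell counterpart of Cct6a, had a mean of 0.159 FPKM, and the 2 rows named Cct8l1, a gene related to Cct8, had means of 0.0874 and 0.130. None of these passed the expression filter.

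The fitted differences between EA and control were small, and 6 of 8 subunits had an unadjusted p above 0.05. The log2 fold change, EA against control, was above 0 for 8 of 8 subunits, with a median of 0.08, while 49.5% of all genes tested were above 0 and their median was -0.00178. None of the 8 was called, that is, none combined a fold change above 1.2 with an adjusted p under 0.05 in edgeR's quasi-likelihood test (Benjamini-Hochberg over all genes). Such calls were rare in these data, 3 of 15169 genes or 0.0198%. At an unadjusted p under 0.05, 2 of 8 subunits were higher in EA and 0 were lower, against 6.59% of all genes that were higher and 13.7% that differed in either direction at that p. DESeq2, which called 77 genes higher and 91 lower, also called 0 of 8.

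**Figure D2:**
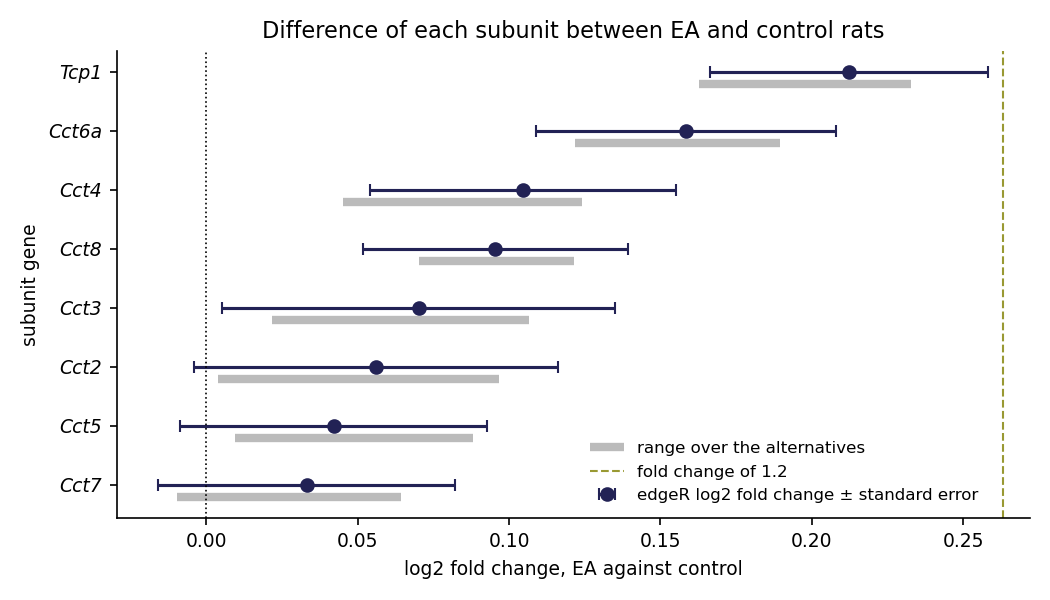
Fitted log2 fold change, EA against control, of each subunit (horizontal axis), with subunits ordered by size on the vertical axis. Points and whiskers are the edgeR estimate ± its standard error, grey bars give the range over 21 alternative settings, the dotted line marks no difference and the dashed line the fold change of 1.2 used for calls. Tcp1 at 0.21 and Cct6a at 0.16 lie farthest right, and no estimate reaches the dashed line.

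Tcp1, the gene from which the complex takes its older name, showed the widest separation of the groups. Its FPKM was 28.4, 30.2, 28.4, 28.5 and 26.5 in control 1 to 5 and 32.3, 33.6, 30.8, 31.1 and 34.2 in EA 1 to 5. All 5 EA libraries lay above all 5 control libraries, as they did for 0.850% of the genes tested. The means were 28.4 ± 1.33 in control and 32.4 ± 1.51 in EA (SD, n = 5 each). The log2 fold change was 0.21 with a standard error of 0.046 (edgeR, unadjusted p = 5.83e-04, adjusted p = 0.172). With DESeq2 the log2 fold change was likewise 0.21 and the adjusted p was 0.0166, which passes the p threshold, but the fold stays under 1.2. Its unadjusted p was under 0.05 in 21 of 21 alternative settings, with a log2 fold change between 0.16 and 0.23 and an adjusted p between 0.0166 and 0.890.

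Cct6a, the gene of the zeta subunit, came next. Its FPKM was 23.4, 23.8, 22.1, 26.5 and 24.7 in control and 27.0, 27.4, 24.9, 25.6 and 27.4 in EA. The groups overlapped through control 4, which lay above EA 3 and EA 4. The means were 24.1 ± 1.64 and 26.5 ± 1.15 (SD, n = 5 each). The log2 fold change was 0.16 with a standard error of 0.050 (edgeR, unadjusted p = 0.00775, adjusted p = 0.223), and the unadjusted p was under 0.05 in 20 of 21 settings.

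Cct4 and Cct8 had log2 fold changes near 0.10. Cct4, whose mutation causes an inherited sensory neuropathy in rats, had an FPKM of 40.4, 43.8, 37.5, 43.8 and 43.7 in control and 43.9, 45.5, 41.0, 43.8 and 47.2 in EA. Its log2 fold change was 0.10 with a standard error of 0.050 (edgeR, unadjusted p = 0.0604, adjusted p = 0.386). Cct8 had 34.9, 39.1, 35.2, 38.0 and 35.7 in control and 40.3, 39.2, 34.9, 39.9 and 38.0 in EA. Its log2 fold change was 0.10 with a standard error of 0.044 (edgeR, unadjusted p = 0.0501, adjusted p = 0.363). In each gene at least 1 EA library lay within the control range, EA 3 being the lowest EA library of both. An unadjusted p under 0.05 was reached in 3 of 21 settings for Cct4 and in 5 of 21 for Cct8.

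The other 4 subunits differed by less than their standard error or little more. Cct3 had a mean FPKM of 26.0 ± 2.51 in control and 26.9 ± 1.97 in EA, Cct2 of 36.2 ± 2.57 and 37.1 ± 3.11, Cct5 of 62.1 ± 4.74 and 62.9 ± 2.87, and Cct7 of 55.6 ± 2.35 and 56.0 ± 4.08 (SD, n = 5 each). Their log2 fold changes were 0.07, 0.06, 0.04 and 0.03, with standard errors of 0.065, 0.060, 0.051 and 0.049. The unadjusted edgeR p lay between 0.301 for Cct3 and 0.510 for Cct7, and 0 of 21 settings brought any of them under 0.05. Cct3 was lower in control 1, at 21.7, than in the other control libraries, at 26.3 to 27.9, and without control 1 its log2 fold change was 0.02. Cct7 is the gene whose direction was least settled, with a value above 0 in 19 of 21 settings. It was -0.01 with structural RNA as a covariate and -0.00104 without EA 2 and EA 5. Cct5, the gene mutated in a human hereditary sensory neuropathy, had its lowest and its highest values both in control, 54.4 in control 1 and 67.4 in control 4.

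Summed over the 8 subunits the FPKM was 311 ± 15.1 in control and 324 ± 16.4 in EA (SD, n = 5 each). Control libraries ranged from 290.9 to 325.0 and EA libraries from 298.0 to 338.1, so the sums overlapped widely on this scale. The lowest FPKM sums were those of control 1, EA 3 and control 3, and the highest were those of EA 1 and EA 5. These sums also depend on the share of mitochondrial transcripts. As a percentage of the FPKM of all other transcripts, the sum lay between 0.0878% and 0.0947% in control. It was 0.102%, 0.0980%, 0.0937%, 0.0955% and 0.101% in EA 1 to 5, so only EA 3 lay within the control range.

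The share of each subunit in that sum was also computed. With an even share at 12.5%, Cct5 held 19.7% and Cct7 17.6% over the 10 libraries, while Cct6a held 7.96% and Cct3 8.32%. Tcp1 went from 9.15% ± 0.546 in control to 9.99% ± 0.340 in EA, and Cct6a from 7.75% ± 0.389 to 8.16% ± 0.171 (SD, n = 5 each). Cct7 went from 17.9% ± 0.403 to 17.2% ± 0.509, and Cct5 from 19.96% ± 0.937 to 19.4% ± 0.848.

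The subunits are known to differ in how tightly they bind ATP, and the values were also described by that division, which was chosen after they had been seen and carries no test. Tcp1, Cct3, Cct6a and Cct8, the subunits of lower ATP affinity, together made 37.0% ± 0.389 of the summed FPKM in control (36.4% to 37.4%) and 38.3% ± 0.314 in EA (37.9% to 38.7%). Cct2, Cct4, Cct5 and Cct7, those of higher affinity, made up the rest, 63.0% and 61.7%. The shares of the groups did not overlap, but how many other divisions of the subunits would do the same was not counted. The lower-affinity subunits include Tcp1, whose FPKM was by itself separate between the groups. Within the lower-affinity subunits the rise lay mainly in Tcp1 and Cct6a, whose shares are given above. Cct3 went from 8.36% in control to 8.28% in EA and Cct8 from 11.8% to 11.9%. Among those of higher affinity Cct4 rose from 13.5% to 13.7%, and Cct2 went from 11.7% to 11.4%. The median log2 fold change was 0.13 over the subunits of lower affinity, from 0.07 to 0.21, and 0.05 over those of higher affinity, from 0.03 to 0.10.

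From library to library the 8 mRNAs tended to be high or low together. The deviation of each library from the gene's own mean, on the log2 scale of counts scaled to library depth by TMM (CPM) and averaged over the 8 subunits, was -0.10, 0.00, -0.10, -0.02 and -0.02 in control 1 to 5. In EA 1 to 5 it was 0.10, 0.08, -0.03, 0.01 and 0.08. In control 1 and control 3, 0 of 8 subunits were above their own mean, and in EA 1 and EA 5, 8 of 8 were. EA 3, the library with the fewest counts, was the exception among the EA libraries, with 3 of 8 above.

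**Figure D3:**
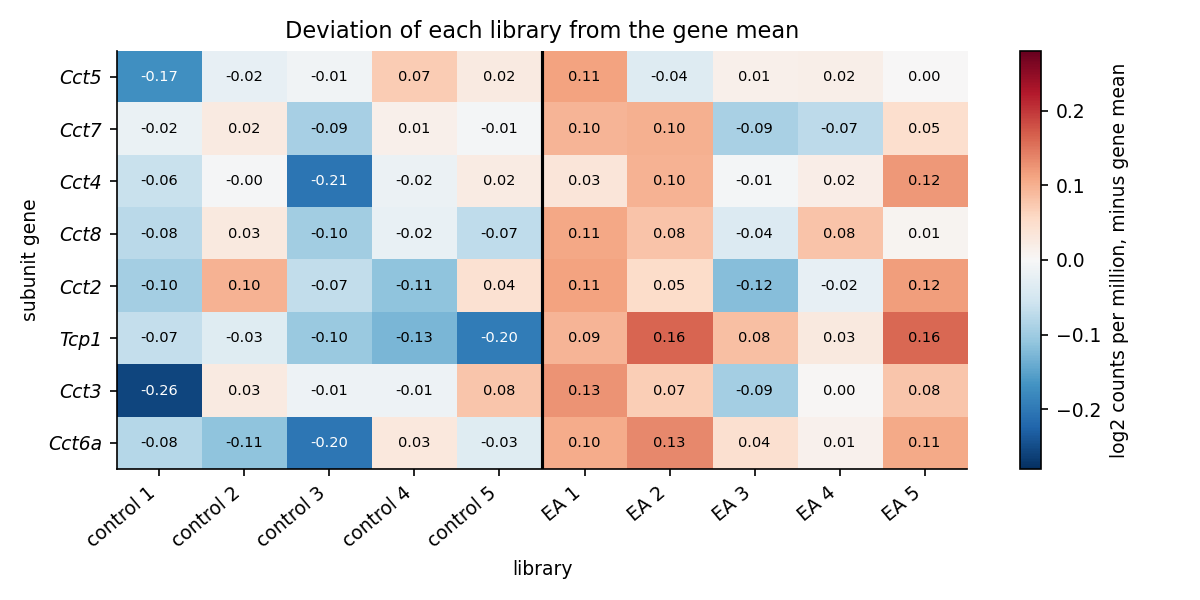
Deviation of each library (columns, 5 control then 5 EA) from the gene mean for each subunit (rows), in log2 CPM, printed in each cell and coloured from blue (below the mean) to red (above it). Control 1 and control 3 are below the mean in 8 of 8 subunits and EA 1 and EA 5 are at or above it in 8 of 8, and the lowest cell is Cct3 in control 1 at -0.26.

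Pearson's r was above 0 for 28 of 28 pairs of subunits over the 10 libraries, with a median of 0.566 and a range from 0.0743 to 0.864. The median over all 115041696 pairs of genes tested was -0.00143, and over pairs of the 1836 genes with a mean FPKM in the range of the subunits it was 0.0259. With the group means removed, 26 of 28 pairs stayed above 0 and the median was 0.328, from -0.470 to 0.772, beside -0.00135 for all genes and 0.0321 for genes of like level. Without EA 2 and EA 5 the median was 0.478. Without control 1, control 3 and EA 3, an alternative added after the data had been seen, it was 0.455.

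Adjusted over the 28 pairs, 2 correlations had a p under 0.05. Cct4 and Cct6a had a Pearson's r of 0.864 (permutation p = 8.50e-04, adjusted p = 0.0238) and a Spearman's rho of 0.758 (permutation p = 0.0152, adjusted p = 0.0708). Their r was 0.717 without the 2 libraries farthest from the median of Cct4 (exact permutation p = 0.0426). With group means removed it was 0.772, and both genes were at their lowest in control 3. For every pair the 2 farthest libraries were picked by the gene named first. Cct2 and Cct3 had an r of 0.748 (permutation p = 0.00356, adjusted p = 0.0498) and a rho of 0.830 (permutation p = 0.00479, adjusted p = 0.0671). Their r was 0.797 without the 2 farthest libraries (exact permutation p = 0.00278) and 0.719 with group means removed. By Spearman's rho, or without EA 2 and EA 5, 0 of 28 pairs passed. All p-values are two-sided.

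Some high correlations changed with the libraries left out or with the group means removed. Cct3 and Cct5 had an r of 0.747 (permutation p = 0.0291, adjusted p = 0.129; rho 0.455, permutation p = 0.193) that became -0.302 without the 2 farthest libraries (exact permutation p = 0.463). That r was 0.717 with the group means removed and 0.853 without EA 2 and EA 5. Both genes were at their lowest in control 1. Tcp1 and Cct6a, the subunits with the largest differences between EA and control, had an r of 0.711 (permutation p = 0.0226, adjusted p = 0.129; rho 0.758, permutation p = 0.0149), which was 0.728 without the 2 farthest libraries (exact permutation p = 0.0445) but 0.0388 with the group means removed. Tcp1 and Cct5 had the lowest r, 0.0743 (permutation p = 0.852, adjusted p = 0.852; rho -0.200, permutation p = 0.583), which was 0.277 without the 2 farthest libraries and was -0.470 with the group means removed.

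**Figure D4:**
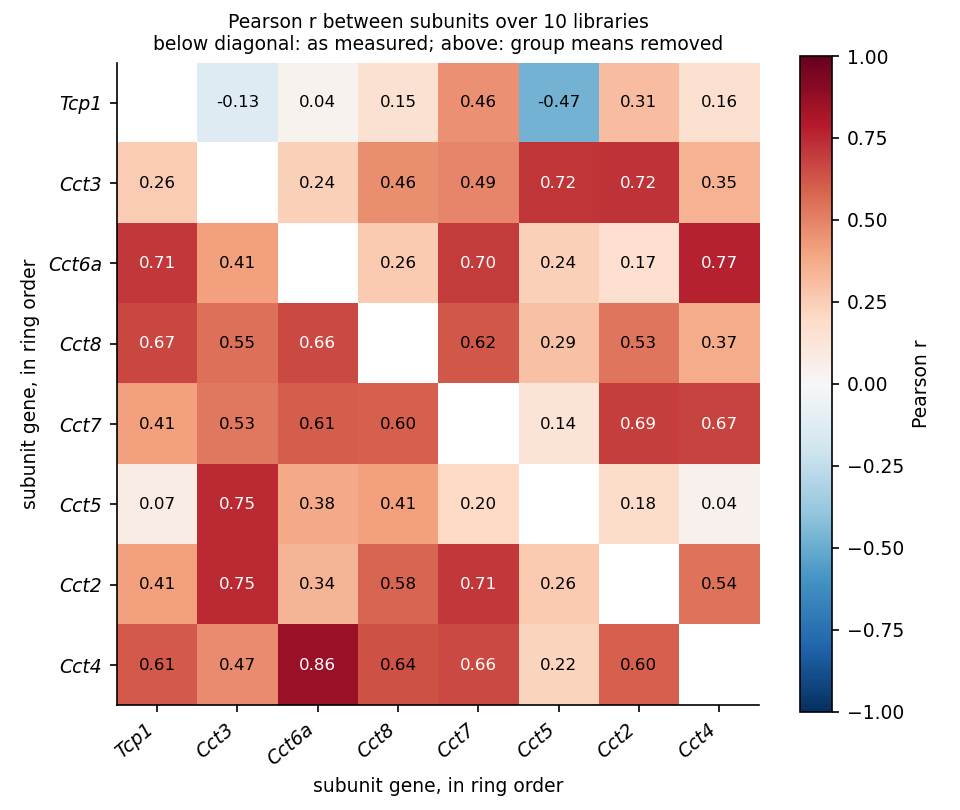
Pearson's r between each pair of subunits over 10 libraries, with subunits on both axes in their known order around the ring. Values below the diagonal are as measured and those above it have the group means removed, coloured from blue (-1) to red (1). Below the diagonal no value is under 0 and the highest is 0.86 for Cct4 and Cct6a, and above it 2 values are under 0, both of Tcp1.

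The pairs were also described by position in the ring. In the known order of the assembled ring (Tcp1, Cct3, Cct6a, Cct8, Cct7, Cct5, Cct2, Cct4 and back to Tcp1) the 8 pairs of neighbours had a median r of 0.504, from 0.199 to 0.656, and the other 20 pairs 0.566, from 0.0743 to 0.864. No test was made between them, since pairs share subunits.

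Each subunit was also set against the mean profile of the other 7. Cct8 followed it most closely with an r of 0.784, and 1.17% of 15161 other genes followed the same profile more closely. Cct4 had 0.774 (1.29% of genes higher), Cct6a 0.755 (1.68%), Cct7 0.700 (2.87%), Cct3 0.700 (3.30%) and Cct2 0.684 (3.44%). Tcp1 at 0.579 (7.08%) and Cct5 at 0.412 (17.5%) followed the others least. These r values describe 10 libraries that share their preparation and carry no test.

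The genes outside the complex whose profile was most like the mean of the 8 subunits included several chaperones. They were picked for their r from 15161 genes over 10 libraries, so their high values are no test. The share of chaperones among all genes was not counted. The 8 highest Pearson's r over 10 libraries were those of Hsph1 (0.965), a nucleotide exchange factor of Hsp70, Rfxapl1 (0.961), Stx18 (0.941), a syntaxin of the endoplasmic reticulum, Stip1 (0.939), which links Hsp70 to Hsp90, Zcchc18 (0.937), the Eph receptor Epha7 (0.933), the proteasome subunit Psma2 (0.933) and LOC103692716 (0.924). The last is described in the gene table as heat shock protein HSP 90-alpha, so its reads may be split with Hsp90aa1. With the group means removed their r lay between 0.854 (Psma2) and 0.935 (Stx18). Hsph1 had an FPKM of 62.8, 76.2, 66.4, 72.8 and 71.7 in control and 98.0, 86.1, 70.1, 79.8 and 91.0 in EA. As with the subunits, its lowest control libraries were control 1 and control 3 and its lowest EA library was EA 3.

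Cytosolic heat shock genes as a list showed both the difference between groups and the likeness to the subunits. Of 19 tested, 14 were higher in EA at an unadjusted p under 0.05, 0 were lower and 1, Dnaja1, was called. Of all genes tested, 6.59% were higher at that p and 0.0198% were called in either direction. The list was set with earlier results of these data known and holds genes that the study reported as differing. Its count therefore describes the list and is no test. Their median log2 fold change was 0.20. Dnaja1, an Hsp40 partner of Hsp70, rose from 86.1 ± 3.41 to 112 ± 8.22 FPKM (log2 fold change 0.40, standard error 0.051, edgeR adjusted p = 0.0220). Chordc1, an Hsp90 partner, had a log2 fold change of 0.51 (adjusted p = 0.0897), Hsp90aa1 of 0.26 (adjusted p = 0.0897) and the inducible Hsp70 gene Hspa1b of 2.70 (adjusted p = 0.0897), and in each of the 3 all EA libraries lay above all control libraries. The study, which used DESeq2 at the same thresholds, listed Hspa1b, Hsph1, Dnaja1 and Dnajb1 among its differentially expressed genes. It named Chordc1 and Dnajb4 among the hub genes of the protein interaction network built from those genes. It also reported Hspa1b and Dnaja1 as higher in EA by qPCR. The median r of the 19 with the subunit mean profile was 0.736, and 0.446 with the group means removed, beside -0.00623 and -0.0126 for all other genes.

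The likeness was uneven among heat shock genes. Beside Hsph1 and Stip1, the r was 0.885 for Hsp90ab1, 0.845 for Hspa4, 0.810 for Ahsa1, 0.809 for Fkbp4, 0.802 for Chordc1, 0.774 for Hspa8, 0.742 for Hsp90aa1, 0.736 for Ptges3 and 0.726 for Dnaja1. With the group means removed these values were 0.746, 0.776, 0.781, 0.790, 0.615, 0.607, 0.428, 0.537 and 0.338 in the same order. Dnajb1 (0.698), Hsf2 (0.670), Hspa4l (0.622), Bag3 (0.618) and Dnajb4 (0.495) had 0.171, 0.362, 0.446, 0.128 and -0.315 with the group means removed. Hspa1b had an r of 0.554 that became -0.0989 with the group means removed, and the small heat shock gene Hspb1 had 0.177 and -0.678. Hspa1b was 65.6, 8.41, 47.2, 16.4 and 37.5 FPKM in EA 1 to 5, so EA 3, where 5 of 8 subunits were below their means, held a level lower only than that of EA 1. Hsf1, the gene of the main heat shock transcription factor, ran opposite to the subunits with an r of -0.681, and -0.621 with the group means removed.

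Genes that work directly with TRiC had values in both directions. Of the 9 cofactors and related chaperonins 7 were tested, with a median log2 fold change of 0.09. Mkks, a chaperonin-like gene mutated in Bardet-Biedl syndrome, was higher at an unadjusted edgeR p of 0.0454 (log2 fold change 0.12), and Pdcl3, a phosducin-like TRiC cofactor, was lower at 0.0302 (-0.22, FPKM 10.3 ± 1.02 to 8.70 ± 0.845). Txndc9, another phosducin-like cofactor, had 0.09 and Bbs12, a chaperonin-like gene at the edge of the filter, 0.32. Adjusted p was 0.310 or more for each of the 4. Pdcd5 in this list and Tbcb among the tubulin cofactors were listed at 0 FPKM in at least 1 library.

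Prefoldin delivers actin and tubulin to TRiC. Of the 8 genes of prefoldin and its relatives, 0 were higher and 1 was lower at an unadjusted p under 0.05, with a median of 0.02. Vbp1, a prefoldin subunit, had a log2 fold change of -0.14 (FPKM 33.0 ± 2.67 to 29.4 ± 0.973, adjusted p = 0.303). Pfdn1 had 0.10, Pfdn2 -0.10 and Pfdn4 0.20.

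The tubulin cofactors, which receive tubulin after TRiC has folded it, went both ways, with 2 of 7 higher and 1 lower at that p and a median of -0.10. Tbca, the beta-tubulin cofactor A, was at 47.5 ± 1.71 FPKM in control and 53.3 ± 4.65 in EA (log2 fold change 0.19, adjusted p = 0.258) and Tbce at 0.11. Arl2, a small GTPase of the same machinery, went from 21.8 ± 1.99 to 17.8 ± 2.11 (-0.27, adjusted p = 0.237), and Tbcc had -0.24.

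Clients of TRiC were counted at the same unadjusted p under 0.05, which 13.7% of all genes reached. Of 20 actin, actin-related and tubulin genes 0 were higher and 1 was lower, with a median log2 fold change of -0.00773. The neuronal beta-tubulin Tubb2b had -0.15 (FPKM 74.8 ± 4.83 to 66.4 ± 3.88, adjusted p = 0.290), Actb -0.10, Actr3 0.08 and Actr2 0.07. Of 15 WD40 repeat clients 2 were higher and 2 lower, with a median of -0.07. The phosphatase subunit Ppp2r2b had 0.18 (adjusted p = 0.183) and the striatin Strn3 0.16 (adjusted p = 0.222, with all EA libraries above all control libraries). Mlst8, a subunit of the mTOR complexes, had -0.14 (adjusted p = 0.257, with all EA libraries below all control libraries) and Strn4 -0.12. None of the genes of these 5 lists was called.

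The mitochondrial chaperonin, a distant relative of TRiC in the matrix, has 2 parts. Hspd1, its barrel subunit, was at 57.4 ± 2.15 FPKM in control and 62.2 ± 2.11 in EA, with no overlap (log2 fold change 0.14, standard error 0.040, edgeR unadjusted p = 0.00408, adjusted p = 0.201). Its lid Hspe1 had -0.04 (adjusted p = 0.874).

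Other RNAs annotated inside or beside the subunit genes were compared at the same time. Tcp1 overlaps Acat2l1 on the opposite strand by 606 bases and lies 372 bases from Mrpl18, whose log2 fold changes were 0.06 and 0.01. It holds 2 small nucleolar RNA genes, Snora20 (0 to 0.310 FPKM in control, 0 to 1.12 in EA) and AABR07071864, with at most 9 counts in a library. Cct6a holds the small nucleolar RNA gene Gm23245, at 0.576 to 2.34 FPKM in control and 1.84 to 3.93 in EA (log2 fold change 1.29, edgeR unadjusted p = 0.00730, adjusted p = 0.223), but with at most 32 counts, where Cct6a had at least 3785. Cct8 overlaps Usp16 by 170 bases (0.13, unadjusted p = 0.0808), and Pradc1, 95 bases from Cct7, had -0.19 (unadjusted p = 0.0439). The part of these neighbours in the subunit values was not tested.

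The results for Tcp1 and Cct6a were set beside structural RNA. Since structural RNA was itself higher in every EA library than in every control library, a relation with it cannot be told apart from the group difference. This holds also within the libraries left without EA 2 and EA 5, and for the covariate fit. Tcp1 was highest in EA 5 and EA 2, the libraries rich in structural RNA, and Cct6a shared its highest values between the same libraries. Over the 10 libraries Spearman's rho with structural RNA was 0.770 for Tcp1 (permutation p = 0.0124) and 0.818 for Cct6a (permutation p = 0.00575). Of 16 relations of the subunits with structural RNA and with the mitochondrial share, adjusted together, that of Tcp1 with structural RNA passed by Pearson's test (permutation, adjusted p = 0.0397), while Cct4 and Cct6a did not (adjusted p = 0.177 each). As EA 2 and EA 5 form a separate cluster, Pearson's r is given within the other 8 libraries. There it was 0.645 for Tcp1 (exact permutation p = 0.0882; rho 0.571, exact permutation p = 0.151) and 0.592 for Cct6a (exact permutation p = 0.123; rho 0.667, exact permutation p = 0.0831). For the other 6 subunits r lay between -0.275 (Cct7) and 0.447 (Cct4). Adjusted over the 8 subunits 0 passed in those libraries, and without their own 2 farthest libraries r was 0.447 for Tcp1 and 0.628 for Cct6a. Without EA 2 and EA 5 the log2 fold change was 0.18 for Tcp1 (edgeR unadjusted p = 0.00712) and 0.13 for Cct6a (unadjusted p = 0.0458). With structural RNA as a covariate it was 0.16 for Tcp1 (unadjusted p = 0.0207) and 0.12 for Cct6a (unadjusted p = 0.0985). The mitochondrial share had Pearson's r with the subunits between -0.456 (Cct3, permutation p = 0.185) and 0.424 (Tcp1, permutation p = 0.223), and Spearman's rho between -0.176 (Cct3, permutation p = 0.631) and 0.467 (Tcp1, permutation p = 0.179). Without the 2 libraries farthest from the median mitochondrial share these r values were -0.477 and 0.228. Of the 8 relations with the mitochondrial share none had an adjusted p under 0.509.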

How the data were processed

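Per the labels and the study's methods, poly(A) RNA of 10 cerebral cortex samples (5 control, 5 EA) was sequenced as strand-marked paired ends. The authors trimmed the reads, aligned them with HISAT2 and assembled and quantified transcripts with StringTie. The submitters' processing notes name HISAT2 2.0, StringTie 1.3.0, Bowtie 0.12.2 and the build Rnor_6.0, without their order. The authors deposited for each gene an FPKM, in which 1e-04 stands for 0, and an estimated count given as a whole number, and how these counts were derived from the assembly is not given in the sources used here. Of the columns with sample values 0 could not be mapped to a sample.

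Genes that reached 0.5 FPKM in 5 or more libraries were tested with edgeR 4.0.16 (quasi-likelihood, TMM scaling, R 4.3.3) on the deposited counts, without covariates, as EA against control, with Benjamini-Hochberg adjustment over all 15169 genes. A call needed an adjusted p under 0.05 and a fold above 1.2, the thresholds of the study. Since the labels do not say that libraries are separate animals, p-values measure the spread between these samples. Correlations used log2 CPM (prior count 2) in Python 3.11.15 with SciPy 1.17.1, with permutation p-values from 100000 resamples, or exact ones below 10 libraries. Alternatives were other scalings and filters, DESeq2 1.42.0, limma 3.58.1 on log2(FPKM + 1) and log2(FPKM + 0.1), a replicate block, a structural RNA covariate, and libraries left out. The members, gene lists and markers were chosen with earlier results of these data known. Named were the 8 subunits, the called members and the 4 lowest p-values of each pathway list, and the 8 genes most like the mean subunit profile. Other heat shock genes, the neighbouring genes and the division by ATP affinity were chosen after values had been seen. Motifs were searched in 300 bases of RefSeq promoters on GRCr8. No protein sequences were used here.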

Additional observations from a re-analysis of the deposited data

Results flagged for a closer look

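The FPKM of Cct3 in control 1 was 21.7, while the other 4 control libraries lay between 26.3 and 27.9. Its gap to the nearest of them was 0.740 of the range of the group, above the critical value of 0.71 for 5 samples in Dixon's test. This was 1 of 18 groups of values examined in this way, and chance marks about 1 in 20. Control 1 was also the library with the lowest level of Cct5 and the lowest summed FPKM of the 8 subunits, 290.9.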

How the results depend on the processing

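Of 168 values of the subunit log2 fold changes over 21 alternative settings, 165 kept their direction and their side of the threshold. The exceptions were Tcp1, whose adjusted p was 0.0166 with DESeq2, and Cct7, whose log2 fold change was -0.00966 with structural RNA as a covariate and -0.00104 without EA 2 and EA 5. Under each of the 21 settings 0 of 8 subunits were called, and the median log2 fold change of the 8 lay between 0.06 and 0.11. The number of subunits higher at an unadjusted p under 0.05 was 1 with the covariate and 2 to 4 with a library left out, 4 of them without EA 3. Over all genes, against 3 called higher and 0 lower, DESeq2 called 77 and 91, limma on log2(FPKM + 0.1) 1 and 1, and the covariate 1 and 2. Limma on log2(FPKM + 1) called 1 lower, and the fit without EA 2 and EA 5 called 2 lower. With a library left out 1 to 5 were called higher (1 without control 5 or EA 5, 5 without EA 3) and 0 to 1 lower (1 without control 1 or EA 1). Against 2 pairs of subunits that passed in the correlations, 1 passed with RLE scaling, 0 without EA 2 and EA 5, 0 by Spearman's rho, and 0 to 2 with a library left out (0 without control 3, EA 2 or EA 5, and 1 without control 2, EA 1, EA 3 or EA 4). The median r of 0.566 was 0.328 with group means removed and 0.463 to 0.603 with a library left out. The causes of these changes were not tested.

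Samples with the same replicate number did not deviate together (r from -0.00260 to 0.0605 over genes, 2 of 5 best with their own number). Whether samples of the same number were handled together is not stated in the sources used here, and these values cannot decide it. With a replicate block 0 genes were called higher, and the median r between subunits was 0.225. Each subunit has 1 row, so summing rows changed no level. Levels from counts per length were not run, since no transcript lengths were used here. Depth limits the small nucleolar RNAs inside Tcp1 and Cct6a, with at most 32 counts, and not the subunits, with at least 3191.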
